A study of Rattus norvegicus with 12 samples.

Results

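Heat shock proteins and chaperonins are the cell's protein-folding machinery, and 75 of the 15154 genes that could be named on the arrays code for one of them or for a regulator of them. They were chosen by symbol, from the RefSeq gene that each probe's transcript accession belongs to: 11 genes of the HSP70 and HSP110 family, 7 small heat shock proteins, 3 of the HSP90 family, the 2 subunits of the mitochondrial chaperonin, 10 of the cytosolic chaperonin CCT (also called TRiC), 40 J-domain proteins in classes A (4), B (11) and C (25), and the regulators Bag3 and Hsf1. Each gene was read from 1 probe, the brightest of those assigned to it, and 13 of the 75 had more than 1 probe. Of the 75, 69 were well above background on all 12 arrays, 6 were not (Cct8l2, Dnajb7, Dnajc5b, Dnajc5g, Hspb3 and Hspb7), and Hspa8 was saturated on all 12. Dnajb1, Hspa1a and Dnajc6 were not analysed here.

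The RNA came from primary hippocampal neurons of Wistar rat embryos at embryonic day 18, kept in culture for 14 to 15 days. OGD cultures spent 2 h without oxygen and glucose, in a saline with sucrose, and control cultures spent the same time in air in the same saline with glucose; both then went back to conditioned medium and were collected after 7 h or 24 h of recovery. There were 3 one-colour arrays per group (Ctrl 7 h, OGD 7 h, Ctrl 24 h and OGD 24 h), and same-numbered Ctrl and OGD arrays of a time shared a slide. By the labels' protocol and the study's methods the replicates were 3 cultures; which arrays share a culture is not given in the sources used here, and the p-values measure the spread between the arrays of a group. The cultures are enriched in neurons but mixed, and in such bulk RNA fewer cells of a type and less RNA per cell cannot be told apart. All 12 neuron markers were well above background on all 12 arrays. So were 10 of 11 astrocyte, 8 of 12 microglia, 10 of 12 oligodendrocyte and 9 of 13 vascular and fibroblast markers. The microglia marker Ptprc and the endothelial marker Tek were well above background on none.

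Values below are log2 intensities relative to the median of the same array, so that 0 is the array's median probe, and a difference of 1 is a 2-fold change. They compare a probe with itself across arrays and not one gene with another. A gene was called when limma gave an unadjusted p under 0.05 together with a change of at least 2-fold, the thresholds of the study's own methods. The first OGD array at 24 h stood apart before any gene was considered: its median spot intensity was 131, against 374 and 546 in the other OGD arrays and 402 to 477 in the controls of that time. The first OGD array at 7 h was also the dimmest of its group, at 234 against 364 and 426, with controls of 447 to 660. Each call below is given with and without the first OGD array of its time.

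Chaperones hold unfolded proteins in a state that can still fold, and many of them are made in larger amounts when proteins misfold. HSP70 proteins bind short hydrophobic stretches in an ATP-driven cycle that J-domain proteins start by stimulating the ATPase, HSP110 proteins (Hspa4, Hspa4l, Hsph1) act as their nucleotide exchange factors, and Bag3 joins HSP70 to small heat shock proteins such as Hspb8. HSP90 matures kinases and receptors, CCT folds actin and tubulin inside a closed chamber, and Hspd1 with its lid Hspe1 does the same work in mitochondria. Heat shock factor 1, the product of Hsf1, switches on the inducible members by binding heat shock elements, inverted repeats of GAA, in their promoters.

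Few chaperone genes passed the call rule between OGD and control cultures. At 7 h none of the 75 was called higher, where 1.56% of all named genes were, and none was called lower, where 2.07% of all named genes were. At 24 h, 3 of the 75 were called higher (Hspb8, Hspb7 and Dnajc22), beside 2.74% of all named genes, and none was called lower, beside 2.38%. By an unadjusted p under 0.05 alone, 0 members were higher at 7 h (3.89% of all named genes) and 3 were lower (8.06% of all named genes): Hspa2, Dnaja3 and Dnajc5. By the same p at 24 h, 7 were higher (6.36% of all named genes; Hspb8, Hspb7, Dnajc22, Bag3, Dnajb8, Dnajc25 and Cct6b) and 5 were lower (6.9%; Hspa4, Dnaja4, Dnajb5, Dnajc16 and Hspb3). No member had an adjusted p under 0.05 in limma after Benjamini-Hochberg adjustment over all probes, and the lowest adjusted p among the members was 0.352 at 7 h and 0.29 at 24 h. Without the first OGD array of the time, the counts at an unadjusted p under 0.05 were 0 higher and 1 lower at 7 h (Hspa1l), and 0 higher and 2 lower at 24 h (Hspa4 and Dnajc16). Without the first control array of 24 h they were 2 higher (Cct6b and Dnajc25) and 3 lower (Hspa4, Dnajb13 and Hspb3) at that time.

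At 7 h more members read lower on every OGD array than on any control array than read higher on every one. Every OGD array lay below every control array for 22 of the 75 genes (29.3%), beside 17.9% of all named genes, and above every control for 3 genes (4%), beside 7.6%. That split depended on the scaling. Centring on the 75th percentile gave 11 genes below (14.7%) and 15 above (20%), beside 14.7% and 16.4% of all named genes. Quantile normalization gave 15 below (20%) and 7 above (9.33%), beside 19.5% and 8.97% of all named genes. Normexp gave 30 below (40%) and 10 above (13.3%), beside 25.8% and 25.3%. The spike-in scale gave 2 below (2.67%) and 0 above, beside 6.28% and 0.264%. At 24 h, 5 genes lay below (beside 7.56%) and 7 above (beside 9.07%).

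The median log2 difference over the 75 genes was -0.06 at 7 h and -0.11 at 24 h, beside -0.11 and -0.03 over all named genes. The member median at both times was above 0 with centring on the 75th percentile (0.05 and 0.01). That scaling put the median of all probes at 0.058 and 0.123. Relative to the median of all probes the members stood at -0.01 and -0.12, as with the main scaling. At 7 h, 61 of the 75 genes (81.3%) lay within 0.5 log2 units of no change, beside 73.8% of all named genes, and at 24 h 58 did (77.3%), beside 70.5%. Across the members the differences at the 2 times, each against its own controls, had the same sign for 59 genes, with Pearson's r = 0.65 over the 75 genes and 0.52 over all named genes; genes are not independent replicates. The classes did not share a direction. The small heat shock proteins had a median of 0.35 at 7 h and 0.61 at 24 h, with 4 of the 7 genes above 0 each time. On the 3 slides the class median was 0.8, 0.33 and 0.08 at 7 h and 1.38, 0.14 and 0.16 at 24 h. With all arrays it was above 0 under every scaling tried except that to the spike-in, which gave -0.46 and -0.42. The spike-in scaling moved the median of all probes by -0.863 and -1.014, and relative to that shift the class stood at 0.40 and 0.60. CCT had a median of -0.23 at 7 h, below 0 under all 5 other scalings. Its 24 h median was -0.04, where centring on the 75th percentile gave 0.07 and quantile normalization 0.01. Relative to the median of all probes these stood at -0.05 for the 75th percentile and 0.04 for quantile normalization. The HSP90 family had medians of 0.21 and 0.07, and the mitochondrial chaperonin of 0.29 and 0.20, all of which turned negative with background correction by normexp (-0.39, -0.35, -0.32 and -0.22) and on the spike-in scale. With quantile normalization the HSP90 medians were -0.25 and -0.05, and those of the mitochondrial chaperonin -0.18 and 0.05.

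**Figure D1:**
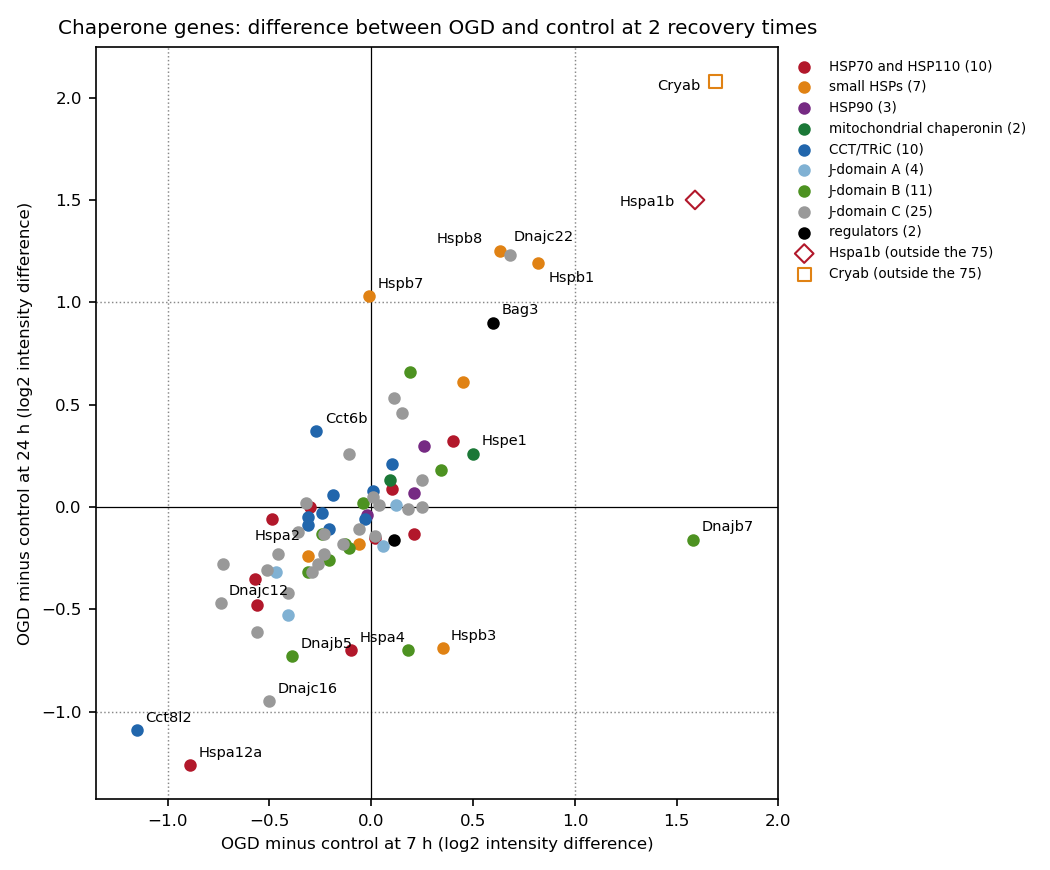
Each point is 1 gene, with the log2 difference between OGD and control cultures at 7 h on the x axis and at 24 h on the y axis, coloured by class; the dotted lines mark 2-fold changes, Hspa8 is left out because its probe was saturated, and open symbols are Hspa1b and Cryab, which are not among the 75. Most points crowd around 0, while the small heat shock proteins Hspb8, Hspb1 and Hspb7, together with Dnajc22 and Bag3, lie near or above 0.9 at 24 h.

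Hspa1b, the stress-inducible HSP70, passed the call rule at both times, but it stands outside the 75. Its probe carries an accession that the gene table used here does not hold, and the gene name comes from the study's own list of genes, which was drawn up from changes on these arrays, so that its difference is not independent evidence of its direction. At 7 h the 3 control arrays read 5.65, 4.64 and 4.52 and the 3 OGD arrays 7.36, 6.08 and 6.12 (replicates 1 to 3). Every OGD array lay above every control array, and replicate 1 was the highest in both groups. The difference was 1.59 ± 0.51 (log2, SE), with an unadjusted p under 0.05 and an adjusted p = 0.301 in limma (0.0226 to 0.887 over the alternatives). At 24 h the control arrays read 4.95, 4.04 and 3.23, and the OGD arrays 5.92, 5.87 and 4.96. The groups again did not overlap, although the lowest OGD array exceeded the highest control array by only 0.01, and the difference was 1.50 ± 0.51 with an unadjusted p under 0.05 (adjusted p = 0.294; 0.0505 to 0.766 over the alternatives). Without the first OGD array the difference was 1.16 at 7 h, with an unadjusted p just over 0.05, and 1.34 at 24 h, with one under 0.05. Without the third control array of 24 h the call at 24 h was lost (1.08). A second probe with the same accession was well above background on no array.

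The HSP70 and HSP110 members measured under the rule did not share that difference. Hspa8, the constitutive HSP70 and one of the most abundant neuronal chaperones, was saturated on all 12 arrays with its brightest probe, and no fold is given for it. Of its other 3 probes, 1 was saturated on most arrays, and the 2 unsaturated ones gave log2 differences of -0.40 ± 0.30 and -0.27 ± 0.29 at 7 h and of -0.16 and -0.20 at 24 h. On one of them the control arrays at 7 h read 5.75, 6.09 and 6.01 and the OGD arrays 5.49, 5.48 and 5.68. Each OGD array lay below every control array. Without Hspa8 the 10 other members had a median of -0.20 at 7 h and -0.14 at 24 h.

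Hspa2, a constitutive HSP70 with a role in spermatogenesis, was the member with the lowest p at 7 h. Its control arrays read 2.39, 2.50 and 2.71 and its OGD arrays 1.99, 2.02 and 2.14. The groups did not overlap, and the difference of -0.49 ± 0.18 (adjusted p = 0.352) was present on all 3 slides. At 24 h the values were 1.57, 1.64 and 1.78 in controls and 1.38, 1.92 and 1.52 in OGD cultures, overlapping, with a difference of -0.06 ± 0.18. For Hspa4, an HSP110 exchange factor, the larger difference was that at 24 h. At 7 h its controls read 6.15, 6.03 and 6.52 and its OGD arrays 5.74, 6.35 and 6.31, a difference of -0.10 ± 0.24. At 24 h its controls were tightly grouped at 6.34, 6.41 and 6.40, and its OGD arrays read 5.65, 5.33 and 6.06, all lower. That difference was -0.70 ± 0.24 (adjusted p = 0.294), a ratio of 0.615, and it was -0.69 without the first OGD array. For neither gene did the difference between the times pass an unadjusted p of 0.05.

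The other HSP110 proteins gave no call. Hspa4l had differences of -0.56 ± 0.28 at 7 h and -0.48 ± 0.28 at 24 h. Hsph1, which is heat-inducible, had 0.21 ± 0.27 and -0.13 ± 0.24, with 1 control array at 7 h missing after flagged spots were dropped. Among the compartment-specific HSP70 proteins, Hspa5 (BiP, of the endoplasmic reticulum) had 0.40 ± 0.35 at 7 h and 0.32 ± 0.35 at 24 h, and Hspa9 (mortalin, of mitochondria) had 0.10 ± 0.17 and 0.09 ± 0.17. Hspa13, a microsomal relative, was outside the rule that fixed which members are named. It read 5.58, 5.35 and 5.12 in controls at 7 h and 4.49, 4.87 and 4.98 in OGD cultures. Those groups did not overlap, with a difference of -0.57 ± 0.26 (adjusted p = 0.425). Without the first OGD array it was -0.42. Hspa12a, an atypical HSP70 enriched in brain, had the largest difference of the class at both times, and its 2 probes disagreed. The brighter probe gave -0.89 ± 0.58 at 7 h and -1.26 ± 0.58 at 24 h (adjusted p = 0.369), and the dimmer one 0.42 ± 0.27 and -0.62 ± 0.27. The brighter probe's 24 h value rests on the first OGD array, which read 1.85 against 4.43 and 4.30 in the others and 4.75 to 4.81 in controls. Without that array the difference was -0.42.

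The small heat shock proteins, which hold unfolding proteins without using ATP, held 3 of the 4 largest positive differences at 24 h (Hspb8, Hspb1 and Hspb7). Hspb8, the partner of Bag3 in chaperone-assisted autophagy, read 3.63, 3.34 and 3.90 in controls at 7 h and 4.70, 3.89 and 4.18 in OGD cultures. These groups overlapped by 0.01, and the difference was 0.63 ± 0.48. At 24 h it read 1.91, 2.26 and 2.50 in controls and 4.77, 3.09 and 2.55 in OGD cultures. All 3 OGD arrays lay above the controls, but by very unequal amounts: on the 3 slides the difference was 2.87, 0.83 and 0.04. The fitted difference was 1.25 ± 0.48, a 2.37-fold higher level that passed the call rule (adjusted p = 0.316; 0.102 to 0.888 over the alternatives). Without the first OGD array it was 0.60, under the rule's fold and with an unadjusted p over 0.05, and without the first control array it was 1.09, also with an unadjusted p over 0.05.

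Hspb7, a small heat shock protein best known from heart muscle, passed the rule at 24 h from a dim probe that was well above background on 8 of the 12 arrays. Its controls read -3.97, -4.16 and -4.19 and its OGD arrays -2.51, -3.19 and -3.53. The groups did not overlap, and the difference was 1.03 ± 0.46, 2.04-fold (adjusted p = 0.359; 0.146 to 0.997 over the alternatives). Without the first OGD array it was 0.75, with an unadjusted p over 0.05, and leaving out any 1 of 7 of the 12 arrays lost the call, including each array of 24 h except the third OGD array. At 7 h its difference was -0.01 ± 0.46. Hspb1 (HSP27), an actin-stabilising small heat shock protein, read 5.71, 5.81 and 6.42 in controls at 7 h and 7.15, 6.39 and 6.85 in OGD cultures, which overlap. At 24 h it read 7.44, 7.74 and 7.54 in OGD cultures against 4.47, 7.20 and 7.47 in controls. Here the first control array was the one far from the rest, and the groups overlapped. Without that array the 24 h difference was 0.24, so that its place among the 4 largest rests on 1 control array. The differences were 0.82 ± 0.63 (adjusted p = 0.623) and 1.19 ± 0.63 (adjusted p = 0.425), and their 95% intervals ran from -0.58 to 2.23 and from -0.21 to 2.60.

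The other 4 members of the class were Hspb9, Hspb6, Hspb2 and Hspb3. Hspb9, a testis-enriched member, had 0.45 ± 0.28 at 7 h and 0.61 ± 0.28 at 24 h (adjusted p = 0.372), Hspb6 (HSP20) had -0.06 ± 0.33 and -0.18 ± 0.33, and Hspb2 had -0.31 ± 0.18 and -0.24 ± 0.18. Hspb3 was well above background on 4 of the 12 arrays, on none at 7 h, and gave -0.69 ± 0.29 at 24 h (adjusted p = 0.344). Cryab, the best-known brain small heat shock protein, falls outside the symbols of the rule and was read in a list of genes linked to heat shock factor 1. Of the 5 lists of partner genes together, it was the 1 gene that passed the call rule. At 7 h it read 6.26, 5.84 and 6.22 in controls and 9.13, 7.16 and 7.12 in OGD cultures. At 24 h it read 6.38, 6.07 and 6.18 in controls and 9.89, 7.47 and 7.50 in OGD cultures, the first of them saturated. All OGD arrays lay above all controls at both times, and the first OGD array was the highest each time. The differences were 1.69 ± 0.66 (adjusted p = 0.361) and 2.08 ± 0.66 (adjusted p = 0.29). Without the first OGD array they were 1.03, with an unadjusted p over 0.05, and 1.27, with one under 0.05. The 7 h call was also lost without the second control array (1.56).

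**Figure D2:**
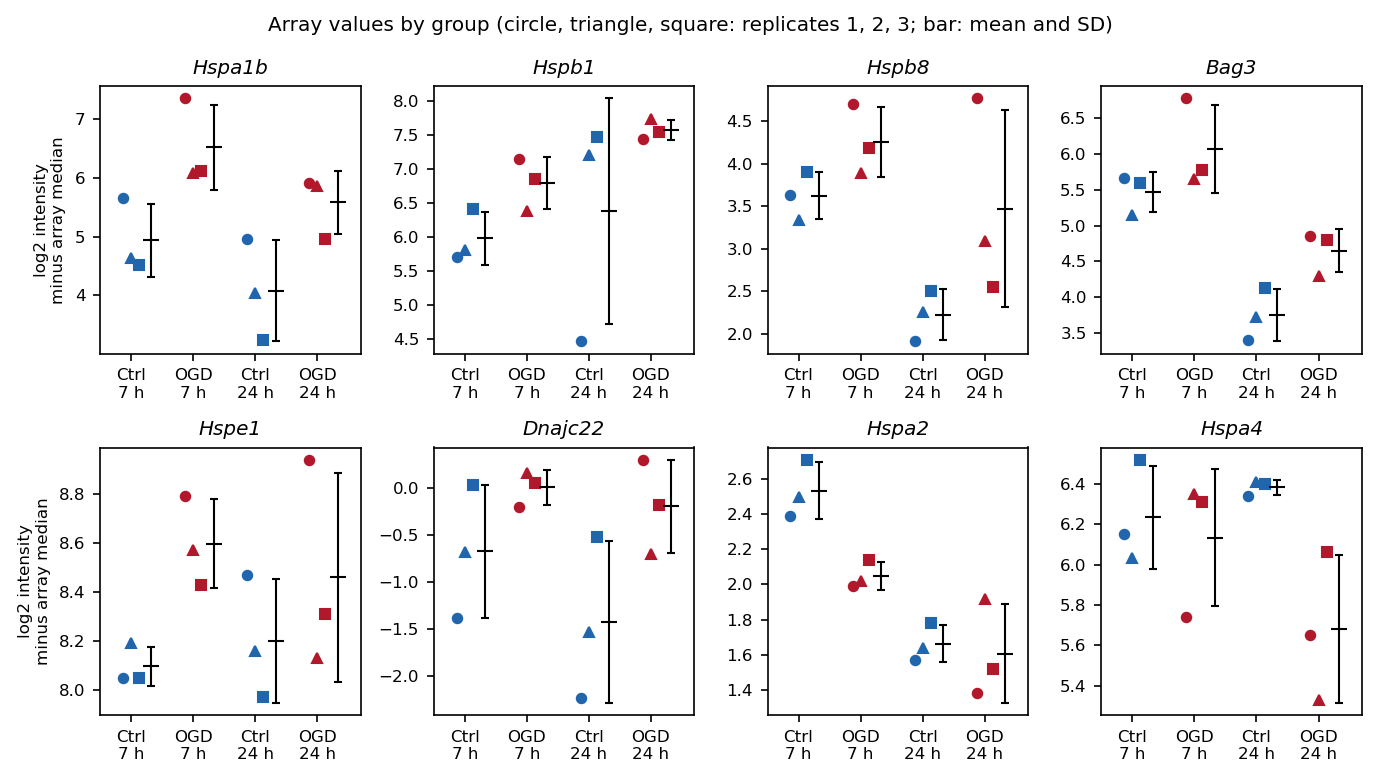
Each panel shows 1 gene on the 12 arrays, with log2 intensity minus the array's median on the y axis (scales differ between panels) and the 4 groups on the x axis; circles, triangles and squares are replicates 1, 2 and 3, and the bars give the mean and SD. The circle of the OGD 24 h group lies far above the other OGD arrays for Hspb8, the circle of the Ctrl 24 h group lies far below the other controls for Hspb1, and the OGD arrays of Hspa2 at 7 h and of Hspa4 at 24 h all lie below their controls.

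Of the 2 regulators, Bag3 read higher in all OGD arrays at 24 h, and Hsf1 did not. Bag3 read 5.66, 5.15 and 5.60 in controls at 7 h and 6.78, 5.65 and 5.78 in OGD cultures, with 1 OGD array under the highest control. At 24 h it read 3.40, 3.72 and 4.13 in controls and 4.85, 4.30 and 4.80 in OGD cultures. These did not overlap, and OGD was the higher array on all 3 slides. The differences were 0.60 ± 0.32 (adjusted p = 0.492) and 0.90 ± 0.32 (adjusted p = 0.307), the latter a 1.87-fold change, just under the 2-fold of the call rule. Centring on the 75th percentile (1.02) and quantile normalization (1.01) put it over the rule, and without the first OGD array it was 0.80 with an unadjusted p just over 0.05. The 7 h difference was 0.24 without the first OGD array of that time. Hsf1 had 0.11 ± 0.17 at 7 h and -0.16 ± 0.17 at 24 h, with 95% intervals of -0.28 to 0.49 and -0.54 to 0.22.

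The controls of the 2 times differed from each other for some of the same genes. From the 7 h to the 24 h controls the difference was -1.72 for Bag3, -1.40 for Hspb8 and -1.34 for Dnajb3, and their control ranges did not overlap. These were the 3 of 75 members whose control ranges were apart and at least 2-fold lower at 24 h, beside 5.03% of all named genes; no member was that much higher, beside 1.06%. The share of members is thus near that of all genes. The OGD arrays of Bag3 at 24 h (4.30 to 4.85) all lay under the 7 h controls (5.15 to 5.66). The times were run on different slides, and slide and time cannot be told apart in this comparison.

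The mitochondrial chaperonin pair gave no call. Hspe1 (HSP10), the lid, read 8.05, 8.19 and 8.05 in controls at 7 h and 8.79, 8.57 and 8.43 in OGD cultures. The groups did not overlap, the difference was 0.50 ± 0.23 (adjusted p = 0.436), and its second probe gave 0.50 ± 0.25. The first probe was saturated on 1 of these control arrays and on 1 OGD array at 24 h. Over the alternatives other than the spike-in scale the 7 h difference of the first probe ran from -0.12 to 0.61. At 24 h the 2 probes gave 0.26 ± 0.23 and 0.43 ± 0.25, and the first gave 0.02 without the first OGD array. Hspd1 (HSP60), the chamber, had 0.09 ± 0.18 at 7 h and 0.13 ± 0.18 at 24 h.

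In the HSP90 family the answer depended on the probe. Hsp90aa1, the inducible cytosolic HSP90, had 3 probes. The brightest gave 0.21 ± 0.26 at 7 h and the dimmest gave 0.20 ± 0.25, whereas the probe named in the study's gene list gave 1.03 ± 0.31 (adjusted p = 0.276). On that probe the 7 h controls read 7.13, 7.12 and 6.58 and the OGD arrays 8.33, 7.79 and 7.78, which do not overlap. The difference was 0.84 both without the first OGD array and without the third control array. It would pass the call rule with all arrays, but the list chose it on these arrays, so it is not independent evidence. At 24 h the 3 probes gave 0.07, 0.11 and 0.24. Hsp90ab1, the constitutive cytosolic form, had -0.02 ± 0.19 at 7 h with its brightest probe and 0.44 ± 0.21 with its other probe, and -0.04 and 0.05 at 24 h. Hsp90b1 (GRP94), of the endoplasmic reticulum, had 0.26 ± 0.28 and 0.30 ± 0.28.

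**Figure D3:**
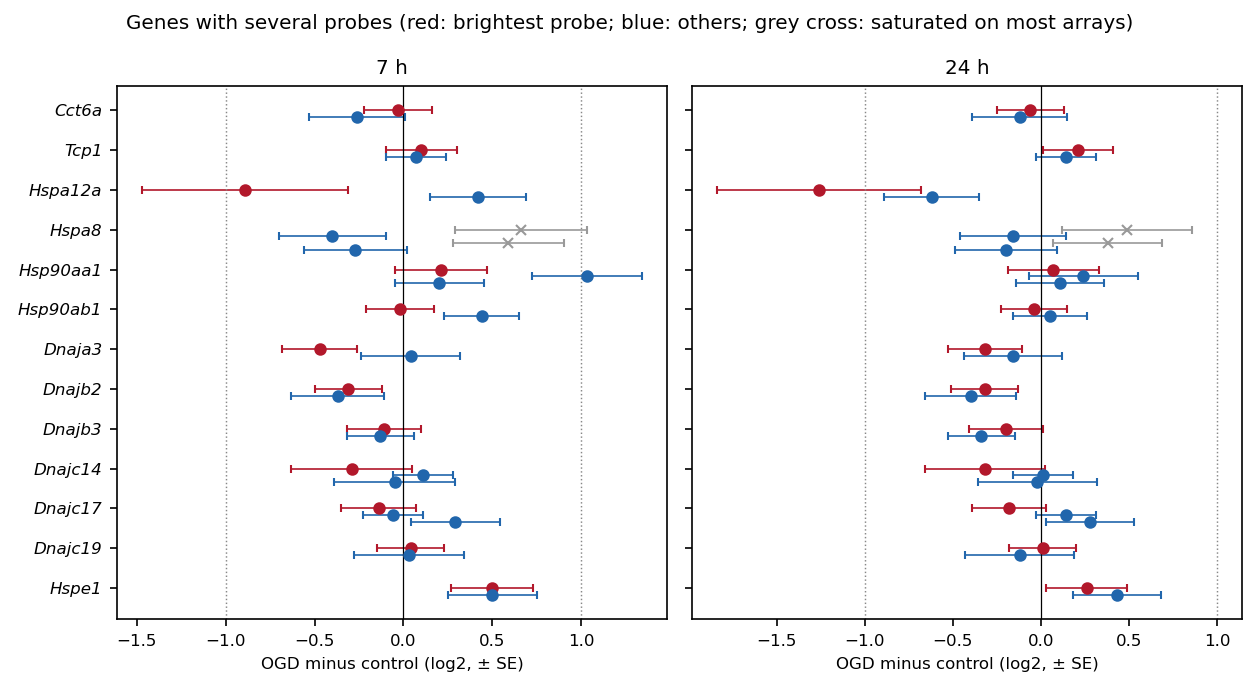
For the 13 genes with several probes, the x axes give the log2 difference between OGD and control at 7 h (left) and 24 h (right) with its SE, in red for the brightest probe, in blue for the others and as grey crosses for probes saturated on most arrays. The probes of Hspa12a, Hspa8 and Hsp90aa1 lie apart at 7 h, while those of Hspe1, Tcp1 and Dnajb2 lie close together.

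The cytosolic chaperonin stayed within narrow limits. Tcp1 and the subunits Cct2, Cct3, Cct4, Cct5, Cct6a, Cct7 and Cct8, 8 genes that together form the ring, had differences between -0.31 and 0.10 at 7 h and between -0.11 and 0.21 at 24 h, with a median SE of 0.18. Cct2 read 5.48, 5.54 and 5.40 in controls at 7 h and 4.93, 5.23 and 5.32 in OGD cultures, which do not overlap, and its difference was -0.31 ± 0.18 with a 95% interval of -0.70 to 0.08. Cct5 had -0.19 ± 0.17 at 7 h and 0.06 ± 0.17 at 24 h, and Tcp1 had 0.10 ± 0.20 and 0.21 ± 0.20. The 2 genes outside the ordinary ring were less alike. Cct6b, a testis-enriched form of the Cct6 subunit, read -2.31, -2.43 and -2.16 in controls at 7 h and -2.54, -2.68 and -2.49 in OGD cultures, and at 24 h -2.24, -2.40 and -2.53 in controls and -1.85, -2.13 and -2.07 in OGD cultures. The OGD arrays lay below all controls at 7 h and above all controls at 24 h, with differences of -0.27 ± 0.17 and 0.37 ± 0.17. Over the alternatives other than the spike-in scale the 7 h difference of Cct6b ran from -0.34 to 0.57. Cct8l2 was dim, well above background on 6 arrays, and had -1.15 ± 0.56 and -1.09 ± 0.56.

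The 40 J-domain proteins deliver substrates to HSP70. Their class medians at 7 h and 24 h were -0.17 and -0.25 (A), -0.11 and -0.18 (B) and -0.23 and -0.13 (C). Centring on the 75th percentile turned the class B median at 7 h to 0.01, and no scaling tried turned the others. Relative to the median of all probes that class B value was -0.05. Dnajc22 was the 1 of the 40 that was called. It read -1.38, -0.68 and 0.03 in controls at 7 h and -0.20, 0.16 and 0.05 in OGD cultures. At 24 h it read -2.23, -1.53 and -0.52 in controls and 0.29, -0.70 and -0.18 in OGD cultures. The groups overlapped at both times, since the third control array was high, but the OGD array was the higher on every slide. The differences were 0.68 ± 0.46 and 1.23 ± 0.46, the latter 2.35-fold (adjusted p = 0.312; 0.163 to 0.895 over the alternatives), and 0.99 at 24 h without the first OGD array, with an unadjusted p over 0.05. The call was also lost without the first control array (0.83) and without the second (1.18).

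Some J-domain genes lay lower in OGD cultures and others higher. At an unadjusted p under 0.05 in limma, 1 class A, 0 class B and 1 class C gene were lower at 7 h. None was higher, and 8.06% of all named genes were lower and 3.89% higher. At 24 h 1 gene of each class was lower (6.9% of all named genes). Of classes A, B and C, 0, 1 and 2 were higher (6.36%). Dnajc5 codes for cysteine string protein, the synaptic-vesicle chaperone, and read 3.60, 3.27 and 3.06 in controls at 7 h and 2.64, 2.87 and 2.87 in OGD cultures. These did not overlap, and the difference was -0.51 ± 0.21 (adjusted p = 0.389), with -0.31 ± 0.21 at 24 h. Without the first OGD array of 7 h the Dnajc5 difference at that time was -0.44. Dnaja3 (Tid1), a mitochondrial co-chaperone, had -0.47 ± 0.21 at 7 h (adjusted p = 0.411) with its brightest probe and 0.04 ± 0.28 with the other. Without the first OGD array the brightest probe gave -0.38. Dnaja4 had -0.41 ± 0.21 and -0.53 ± 0.21 (adjusted p = 0.33 at 24 h), and -0.46 and -0.43 without the first OGD array of the time. Dnajb5 read 3.43, 3.28 and 3.14 in controls at 24 h and 1.99, 2.91 and 2.77 in OGD cultures, a difference of -0.73 ± 0.26 (adjusted p = 0.298) that was -0.44 without the first OGD array. Dnajc12 had the largest class C difference at 7 h, -0.74 ± 0.36. Outside the rule that fixed which members are named, and picked out here after their values were seen, Dnajc16 had -0.95 ± 0.31 at 24 h (adjusted p = 0.29), -0.58 without the first OGD array, and Dnajc25 and Dnajb8 had 0.53 ± 0.21 and 0.66 ± 0.26 (adjusted p = 0.33 and adjusted p = 0.321). Dnaja1, the main class A partner of HSP70, had 0.12 ± 0.22 and 0.01 ± 0.22. The partners of BiP in the endoplasmic reticulum, Dnajc3 and Dnajb9, had 0.15 ± 0.26 and 0.34 ± 0.26 at 7 h and 0.46 ± 0.26 and 0.18 ± 0.26 at 24 h. Dnajb7 had the largest 7 h difference of all 75, 1.58 ± 0.97, from a single array: its probe was well above background on 1 array, an OGD array reading -1.48 where the other 2 read -5.69 and -5.99.

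**Figure D4:**
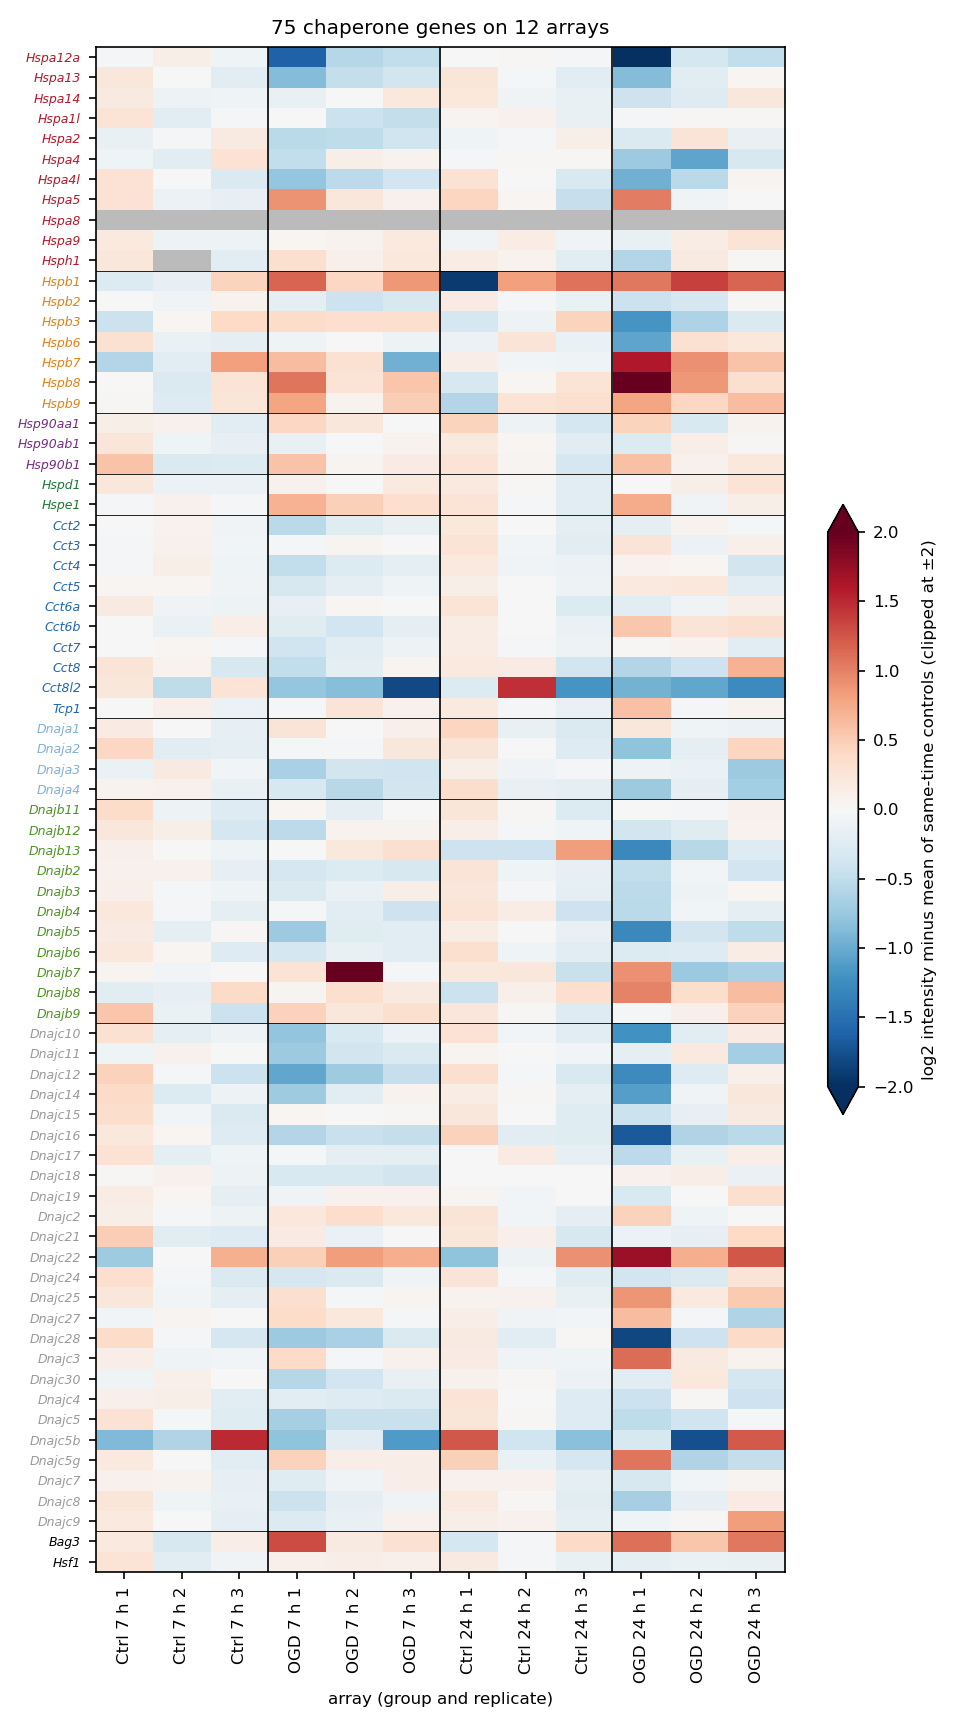
Rows are the 75 genes, grouped and coloured by class, and columns are the 12 arrays; the colour gives the log2 intensity minus the mean of the 3 controls of the same time, from blue (lower) to red (higher), clipped at 2, with grey for the saturated Hspa8 and for 1 missing value of Hsph1. The first OGD array of each time carries the deepest colours, and the rows of Hspb1, Hspb7, Hspb8, Dnajc22 and Bag3 are red on all 3 OGD arrays at 24 h. In the rows of Hspb1 and Dnajc22 some 24 h controls are red too, and the groups overlap. Control replicate 1 of Hspb1 (4.47) lowers the control mean to 6.38, while control replicates 2 and 3 read 7.2 and 7.47. Control replicate 3 of Dnajc22 (-0.52) lies above OGD replicate 2 (-0.7).

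The response at 24 h was set against that at 7 h in the same model. Of the 75 genes, 2 had an unadjusted interaction p under 0.05, beside 3.42% of all named genes: Cct6b, whose difference changed by 0.64 ± 0.23 (adjusted p = 1.0), and Hspb3, whose difference changed by -1.04 ± 0.42 (adjusted p = 1.0).

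Heat shock elements were found in a larger share of the chaperone promoters than of all promoters. In RefSeq promoters of the GRCr8 assembly, 61 of the 75 genes had a sequence, and the 250 bases before the transcription start were searched on both strands for the 8-base element GAANNTTC or TTCNNGAA, each of which reads the same on both strands. At least 1 was present in 18 of 61 members (29.5%) and in 13.2% of 27457 promoters. A longer form of 3 units, in which the 2 overlap by 3 bases, was present in 4 members, Hspa8, Hsph1, Hspd1 and Hspe1 (6.56%, against 0.597% of all promoters). The ER stress element was present in Hspa5, Hsp90b1 and Dnajc3 (4.92%, against 0.0765%). These are matches of letters and not measured binding. The promoter of Hspa1b was not analysed here. The windows shown are of Hspe1 and Hsph1, which have the 3-unit form, and of Hspb8, Hspb1 and Bag3, whose differences were among the larger ones, with the elements in capitals; Hspe1 (chr9:64084222-64084321, plus strand) shares its promoter with Hspd1, which is read from the other strand, and the others lie at chr12:10427292-10427367 (Hsph1, plus), chr12:45837245-45837307 (Hspb8, plus), chr12:26432371-26432470 (Hspb1, minus) and chr1:192533288-192533387 (Bag3, plus).
Hspe1: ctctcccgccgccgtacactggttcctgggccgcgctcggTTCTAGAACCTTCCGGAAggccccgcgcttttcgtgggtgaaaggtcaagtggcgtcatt
Hsph1: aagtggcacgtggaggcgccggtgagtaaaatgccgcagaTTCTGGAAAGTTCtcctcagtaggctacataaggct
Hspb8: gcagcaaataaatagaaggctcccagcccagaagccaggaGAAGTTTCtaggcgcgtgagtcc
Hspb1: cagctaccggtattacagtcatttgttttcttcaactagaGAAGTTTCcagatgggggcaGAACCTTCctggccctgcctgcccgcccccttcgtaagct
Bag3: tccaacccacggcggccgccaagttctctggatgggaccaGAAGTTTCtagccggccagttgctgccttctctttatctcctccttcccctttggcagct

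The members with an element did not move together. Of the genes with the 3-unit form, Hspe1 had a difference of 0.50 at 7 h, Hsph1 of 0.21 and Hspd1 of 0.09, none with an unadjusted p under 0.05, and Hspa8 was saturated. Over the 17 measured members with any 8-base element the median difference was 0.10 at 7 h and 0.01 at 24 h, and 1 of them (Hspb8 at 24 h) was called. Over the 43 without one the medians were -0.11 and -0.11, and 1 (Hspb7 at 24 h) was called. The 3 genes with an ER stress element had differences of 0.15 to 0.40 at 7 h and of 0.30 to 0.46 at 24 h, and none had an unadjusted p under 0.05. Leaving out the first OGD array of the time gave 0.15 and -0.04 for Hspa5, 0.11 and 0.15 for Hsp90b1, and 0.03 and 0.13 for Dnajc3.

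Among the partners of the chaperones Cryab was the 1 gene called. The other genes named in this paragraph were picked after their values were seen. Of 18 measured co-chaperones of HSP90 and HSP70, none was called at either time, and their medians were -0.04 and -0.07. Hspbp1, a nucleotide exchange factor of HSP70, had -0.68 ± 0.22 at 7 h (adjusted p = 0.301), Unc45a, a myosin and HSP90 co-chaperone, had -0.47 ± 0.19 at 7 h, and Bag1 had 0.37 ± 0.16 at 24 h. None of 11 other ER chaperones was called (medians 0.08 and 0.18), and Calr, a calcium-binding ER lectin, had 0.81 ± 0.24 at 7 h (adjusted p = 0.274) and 0.05 ± 0.24 at 24 h. Creld2, an ER stress-induced protein, had 0.18 ± 0.50 and 1.02 ± 0.50 (adjusted p = 0.396), the latter 0.32 without the first OGD array. Pdia4, a protein disulfide isomerase, had 0.74 ± 0.37 and 0.66 ± 0.37, and without the first OGD array of the time 0.46 and 0.23. None of 10 mitochondrial chaperones and proteases was called. All 10 lay below 0 at both times, with medians of -0.23 and -0.12, where 40.1% and 46.5% of all named genes lay above 0. On the third slide the medians of the 10 were 0.09 and 0.12. Without the first OGD array of 24 h, Grpel1, Clpx, Afg3l2, Yme1l1 and Hscb lay above 0 at that time and the others below. Spg7, a subunit of a mitochondrial protease, had the lowest value, -0.63 ± 0.19 at 7 h (adjusted p = 0.282). None of 4 prefoldin subunits was called (0.08 and 0.13). Of 8 other genes linked to heat shock factor 1, 1 was called, Cryab, and their median was 0.09 at 7 h and 0.43 at 24 h.

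Some markers of the cell types in the cultures also differed between OGD and control arrays. Of all named genes, 1.56% were called higher and 2.07% lower at 7 h, and 2.74% and 2.38% at 24 h. Of 12 neuron markers, 1 was called lower at 7 h (Eno2) and 3 at 24 h (Eno2, Syn1 and Syt1). In all, 9 of the 12 lay below 0 at 7 h and 12 at 24 h, with medians of -0.39 and -0.68. Without the first OGD array of the time the 7 h value of Eno2 was -0.98 and the 24 h values of Syn1 and Syt1 were -0.79 and -0.94, all under the rule's fold, while Eno2 at 24 h was -1.05. The summed levels below are weighted towards the brighter probes of a list. The neuron markers' summed level, in multiples of the array median, ran from 897 to 1150 in the 24 h controls and from 512 to 879 in the OGD arrays. At 7 h it ran from 778 to 1020 in controls and from 728 to 1020 in OGD arrays, which overlap. The neuron markers' median difference on the 3 slides at 24 h was -1.48, -0.40 and -0.11. The first slide also had the largest difference of Hspb8. It had the largest of the 3 differences at 24 h for 66.7% of members and 67.1% of all named genes. Of 11 astrocyte markers none was called, and 9 lay above 0 at 7 h but 8 below 0 at 24 h. Their summed levels were 950 to 1080 in controls and 1170 to 1490 in OGD cultures at 7 h. At 24 h these levels were 1000 to 1190 and 925 to 1270. Of 13 vascular and fibroblast markers, 1 was called lower at 7 h (Cldn5) and 1 higher at 24 h (Pdgfrb). Without the first OGD array of the time these were -1.66 and 1.35. The summed levels of the 13 markers at 7 h ran from 44.5 to 146 in controls and from 61.8 to 187 in OGD cultures. At 24 h they ran from 38.7 to 143 in controls and from 132 to 238 in OGD cultures. At each time 7 of these 13 markers lay above 0. Of 12 microglia markers, 1 was called higher at 7 h (Cx3cr1). Their summed levels at 7 h were 16.1 to 16.8 in controls and 16.2 to 29.3 in OGD cultures. At 24 h they were 21.4 to 26.0 in controls and 26.0 to 38.0 in OGD cultures. Above 0 lay 7 of the 12 microglia markers at 7 h and 11 at 24 h. Of 12 oligodendrocyte markers, 1 was called lower at 7 h (Cspg4). Their summed levels at 7 h were 221 to 230 in controls and 117 to 258 in OGD cultures. At 24 h they were 261 to 359 in controls and 300 to 490 in OGD cultures. Above 0 lay 4 of the 12 oligodendrocyte markers at 7 h and 8 at 24 h. Cx3cr1 was 0.85 and Cspg4 -0.59 without the first OGD array, and neither passed the rule. Their part in the values of Hspb1, Hspb8, Bag3 and Cryab was not tested.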

How the data were processed

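RNA of 12 samples (3 replicates per group) was hybridised to Agilent rat 4x44K one-colour arrays. The deposited scanner intensity (gProcessedSignal) had been background-subtracted by the authors' Feature Extraction run. The authors' deposited log2 table, median-centred by them, held the same values up to 1 constant per array (within 0.01 for 100% of probes) and served as an alternative. The authors' lists of changed genes were not used for values.

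Control spots and outlier-flagged spots were dropped, spots of a probe averaged, log2 taken and each array centred on the median of 30367 probes. Accessions named 18004 probes, by the RefSeq gene table of assembly GRCr8; 12363 stayed unnamed. One model of the 4 groups was fitted in limma 3.58.1 (R 4.3.3) with Benjamini-Hochberg adjustment over all probes; summaries used Python 3.11.15. Arrays carry no count depth; 3 per group limit the precision. The members and lists were chosen with earlier results of these data known. The naming rule took members called at either time, the largest difference of each class at each time and 29 members fixed by symbol. It also took members with an interaction p under 0.05 and list genes that were called. Some members outside that rule are also given with values, among them Hspa4l, Hspa13, Hspb2, Hspb9, Dnajb3, Dnajb8, Dnajc16 and Dnajc25. The steps were tested on simulated data. Alternatives were other scalings (75th percentile, quantile, 1 usable spike-in of 10), normexp on the median signal and local background (offset 50; the mean signal named in the plan was not in the columns used), a dim-probe filter, array weights, the methods' t-test, single-time fits, slide blocks, other probe choices and leaving out each array.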

Additional observations from a re-analysis of the deposited data

Results flagged for a closer look

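For 2 of the 75 chaperone genes the OGD responses at 7 h and 24 h differed at an unadjusted interaction p under 0.05 in limma. After adjustment neither did, and the share of members was no larger than that of all named genes. Cct6b, the testis-enriched CCT subunit, had a response 0.64 higher (log2) at 24 h than at 7 h, with a 95% interval of 0.12 to 1.16. It went from -0.27 to 0.37, lower on 3 of 3 slides at 7 h and higher on 3 of 3 at 24 h. Over the alternatives other than the spike-in scale its 7 h difference ran from -0.34 to 0.57, so that its sign depended on the processing. Its 24 h difference ran from 0.22 to 0.48. Hspb3, a small heat shock protein, had a response that differed by -1.04 (interval -1.96 to -0.12), from a probe that was well above background on none of the 7 h arrays. Both had an unadjusted p under 0.05 and an adjusted p of 1.0 in limma, and 3.42% of all named genes had an unadjusted interaction p under 0.05.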

How the results depend on the processing

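Under the 12 alternatives and with each of the 12 arrays left out, 1676 values of the 35 named genes were recomputed. None of the called ones reversed, 23 uncalled ones passed the call rule, and 126 changed sign without being called in either. The 27 that fell below the rule were all values of the 3 genes called at 24 h, a small part of the 1676. Of the 12 arrays, leaving out any 1 of 3 lost the call of Dnajc22, of 7 that of Hspb7 and of 2 that of Hspb8. The count called higher at 7 h, 0, became 2 with normexp and 1 with array quality weights and, chosen after seeing the data, 1 with any probe of a gene (Hsp90aa1), and 0 to 1 with an array left out. The count called lower at 7 h, 0, became 2 with normexp, 1 with limma on each time alone and 0 to 1 with an array left out. The 3 called higher at 24 h became 0 with normexp, array quality weights or spike-in scaling and 1 with the methods' t-test; with an array left out they were 0 to 4, and 0 without the first control or the first OGD array of 24 h. The count called lower at 24 h, 0, became 1 with the 75th percentile, quantile normalization, spike-in scaling, the dim-probe filter or array weights, 2 with normexp and 0 to 3 with an array left out. The 2 interactions became 1 with the 75th percentile or the dim-probe filter, 0 with spike-in scaling or normexp, 9 with array weights and 0 to 3 with an array left out. Array weights gave 11 members an adjusted p under 0.05 at 7 h (of 2470 named genes) and 1, Hspa4, at 24 h (of 278); no other alternative gave a member one. Counts of members whose groups did not overlap were chosen after seeing the data. At 7 h the 3 members with every OGD array above every control became 15 with the 75th percentile and 7 with quantile normalization. They became 10 with normexp, 6 with the authors' values and 0 on the spike-in scale. Over all named genes the shares above were 16.4%, 8.97%, 25.3%, 8.39% and 0.264%. The 22 below became 11 with the 75th percentile and 2 on the spike-in scale, beside 14.7% and 6.28% of all named genes. At 24 h the 7 above became 3 with normexp (beside 6.21%) and 0 on the spike-in scale (beside 0.31%). The 5 below became 0 on the latter (beside 0.713%). Class medians at 7 h and 24 h moved on the spike-in scale to -0.87 and -1.13 over all members, -0.91 and -1.16 (HSP70 and HSP110), -0.46 and -0.42 (small heat shock proteins), -0.59 and -0.95 (HSP90), -0.51 and -0.83 (mitochondrial chaperonin), -1.03 and -1.07 (CCT), -0.98 and -1.28, -0.91 and -1.21, -1.04 and -1.16 (J-domain A, B, C) and -0.46 and -0.65 (regulators). With normexp they moved to -0.52 over all members at 7 h, -0.53 for HSP70 and HSP110 at 7 h, -0.39 and -0.35 for HSP90, -0.32 and -0.22 for the mitochondrial chaperonin, -0.67 and -0.40 for CCT, -0.58, -0.49 and -0.56 for J-domain A, B and C at 7 h, and -0.20 and -0.04 for the regulators. At 7 h quantile normalization gave -0.25 for HSP90 and -0.18 for the mitochondrial chaperonin, and the 75th percentile 0.41 for the latter. With an array left out, the 7 h median ran from -0.21 to 0.10 for HSP70 and HSP110 (0.10 without the first OGD array) and from 0.18 to 0.47 for the regulators. The cause of these changes was not tested. The spike-in scale rests on 1 usable probe.

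Same-numbered arrays share a slide but no stated culture, and their deviations correlated at -0.05, 0.112 and -0.012 (7 h) and 0.084, 0.17 and -0.011 (24 h), so the number was not taken as a pairing. With the replicate block (slide), 2 members were called higher at 24 h, Dnajc22 and Hspb8, and none otherwise, and Hspa1b was called at both times. Hspa1b lost its call with normexp (1.00 and 1.07), on the spike-in scale (0.78 and 0.48), with the methods' t-test at 24 h, without the first OGD array at 7 h and without the third control array at 24 h (1.08). Probes near background, 6 of the 75 members, and the saturated Hspa8 limit what the arrays can show.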
